A study of Homo sapiens with 9 samples.

Results

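The regions described here were accessible in control and E2F1-depleted MDA-MB-231 cells and had no listed peak in EZH2-depleted cells. They were chosen by the peak lists alone. Peaks from the 6 lists of cells with shCtrl, shEZH2 or shE2F1 were merged where they shared 1 bp or more, and a merged region was kept if it held a peak in both shCtrl and both shE2F1 lists and in neither shEZH2 list. This gave 2344 of 112347 regions. They are 4.58% of the 51126 regions with a peak in both shCtrl and both shE2F1 lists, which serve as the comparison throughout. Of the other comparison regions, 5973 had a peak in 1 shEZH2 list and 42809 in both.

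The study measured chromatin accessibility by ATAC-seq, which reads out where the Tn5 transposase can insert adapters into DNA, in MDA-MB-231, a cell line of triple-negative breast cancer (TNBC). It comprised 2 libraries each of cells with a control shRNA (shCtrl), shEZH2 and shE2F1, and 1 library each of cells with shSUZ12, with the solvent DMSO and with GSK126, an inhibitor of the EZH2 methyltransferase. Knockdown cells carried a lentivirus for 24 h and were then kept in puromycin at 2 μg/ml for 72 h, and GSK126 was given for 72 h at a dose the labels do not give. The labels call the DMSO cells WT. All groups share this 1 cell line, each target has 1 shRNA, and the labels do not say whether the replicates were separate cultures, so agreement between them may be technical. DMSO, GSK126 and shSUZ12 played no part in choosing the regions.

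EZH2 is the enzyme of the Polycomb complex PRC2, which methylates histone H3 at silent genes, and SUZ12 is a core subunit that the complex needs for its activity. In TNBC, EZH2 is also studied as a coactivator that works without PRC2, for which E2F1, a transcription factor of the cell cycle, is a proposed partner. An ATAC-seq peak marks DNA where nucleosomes are displaced, at promoters or at distal elements such as enhancers. A lost peak therefore denotes less accessible DNA or too few reads to call it, and a peak list cannot tell these apart.

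Sequences of 6 of these regions are given first, because they carry the features counted further on. Each runs along the plus strand of GRCh38, 100 bases to either side of the stronger shCtrl summit, the position with most reads. Capitals mark matches to the AP-1 (TGACTCA), TEAD (GGAATG) and forkhead (TGTTTAC) letters on either strand, as descriptions and not as proven sites. None of these windows touched an annotated exon. The first 4 belong to the 8 strongest regions, the CNBD2 sequence lies in a promoter, and the UBN2 region had no peak in DMSO, GSK126 or shSUZ12. Windows with a match were preferred for printing and are not typical. The other named regions with the pattern of UBN2 held none of the searched motifs.
SLC38A11 (nearest gene, intergenic, chr2:165055149-165055349): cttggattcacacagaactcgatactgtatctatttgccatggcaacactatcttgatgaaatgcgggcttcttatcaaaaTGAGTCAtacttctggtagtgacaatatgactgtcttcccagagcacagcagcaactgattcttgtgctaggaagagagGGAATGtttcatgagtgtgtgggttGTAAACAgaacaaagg
EXOC6B (intron 19, chr2:72367919-72368119): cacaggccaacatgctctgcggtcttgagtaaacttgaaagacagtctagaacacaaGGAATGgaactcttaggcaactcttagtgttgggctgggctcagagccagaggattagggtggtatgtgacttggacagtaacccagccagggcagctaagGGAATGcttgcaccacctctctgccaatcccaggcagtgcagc
SUGCT (intron 12, chr7:40733187-40733387): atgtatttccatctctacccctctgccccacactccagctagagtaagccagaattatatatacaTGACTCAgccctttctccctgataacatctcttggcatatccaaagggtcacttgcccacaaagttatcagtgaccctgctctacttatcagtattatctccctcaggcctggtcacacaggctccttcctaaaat
WDR75 (nearest gene, intergenic, chr2:189506716-189506916): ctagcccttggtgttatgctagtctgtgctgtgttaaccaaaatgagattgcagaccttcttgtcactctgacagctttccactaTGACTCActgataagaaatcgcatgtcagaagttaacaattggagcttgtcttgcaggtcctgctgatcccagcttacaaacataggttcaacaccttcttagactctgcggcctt
CNBD2 (promoter, chr20:35968983-35969183): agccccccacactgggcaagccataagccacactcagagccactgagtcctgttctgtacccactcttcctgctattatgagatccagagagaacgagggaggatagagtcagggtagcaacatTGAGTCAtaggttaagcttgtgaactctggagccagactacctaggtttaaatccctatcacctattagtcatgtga
UBN2 (intron 2, chr7:139243044-139243244): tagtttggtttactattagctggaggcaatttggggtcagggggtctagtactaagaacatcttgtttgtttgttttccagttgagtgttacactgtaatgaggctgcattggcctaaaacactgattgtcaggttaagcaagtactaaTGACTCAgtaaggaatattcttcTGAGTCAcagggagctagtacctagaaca

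The strength of a region was taken as the lowest percentile, over both shCtrl and both shE2F1 lists, that the fold enrichment of its strongest peak reached within that list. Fold enrichment is the ratio of reads at the summit to the local background. The strongest region of all lay 99.7 kb upstream of the transcription start site (TSS) of SLC38A11, a putative amino acid transporter, at chr2:165055038-165055446. Its fold enrichment was 14.9 and 15.9 in shCtrl, 13.2 and 13.5 in shE2F1, 11.1 in DMSO, 12.2 in GSK126 and 14.8 in shSUZ12. All 7 libraries thus listed it at similar height, and the nearest peak in either shEZH2 list was 38.0 kb away. The 4 libraries that chose it held 33 to 48 reads at the summit. Scaled by the background of each library, these come to 43.4 ± 3.20 (SD over shCtrl and shE2F1 together, n = 4) at the depth of the first shEZH2 library. At the depth of the second they come to 31.4 ± 2.31. The weakest peaks listed there had 9 and 8 reads. Because these 4 libraries chose the region, the reads describe it and do not test its absence.

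The next region, at chr2:72367643-72368206, lay in intron 19 of EXOC6B, an exocyst subunit, 220 kb upstream of CYP26B1, which degrades retinoic acid. It had a fold enrichment of 12.5 and 15.3 in shCtrl, 13.7 and 16.9 in shE2F1, 14.4 in DMSO, 21.9 in GSK126 and 14.5 in shSUZ12. The GSK126 value was the highest of the 7. An intergenic region at chrX:46294066-46294788, with KRBOX4 as its nearest gene, ranged from 10.9 in shSUZ12 to 15.2 in the second shCtrl library. The region near WDR75, a factor of ribosome production, at chr2:189506450-189506990 ranged from 10.6 in the first shCtrl library to 14.2 in DMSO. In both, the libraries outside the rule were within or just beyond the range of the other 4.

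A few of the strongest regions were lower in 1 of the libraries outside the rule. The peak in intron 1 of CD28, the costimulatory receptor of T cells, at chr2:203713941-203714567 stood at 12.01 and 12.06 in shCtrl, 12.1 and 12.6 in shE2F1, 16.1 in DMSO and 11.4 in GSK126, but 5.94 in shSUZ12. The peak nearest to TMEM38B, an ion channel of the endoplasmic reticulum, at chr9:106203553-106204447 also had its lowest value in shSUZ12, at 7.40 against 9.52 to 14.3 in the other 6 libraries. The peak in intron 12 of SUGCT, a mitochondrial enzyme, at chr7:40733091-40733904 was instead lowest in GSK126, at 6.50 against 10.1 to 14.6. With 1 library a condition, these differences have no replicate check. None of the 8 strongest regions overlapped a promoter.

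**Figure D1:**
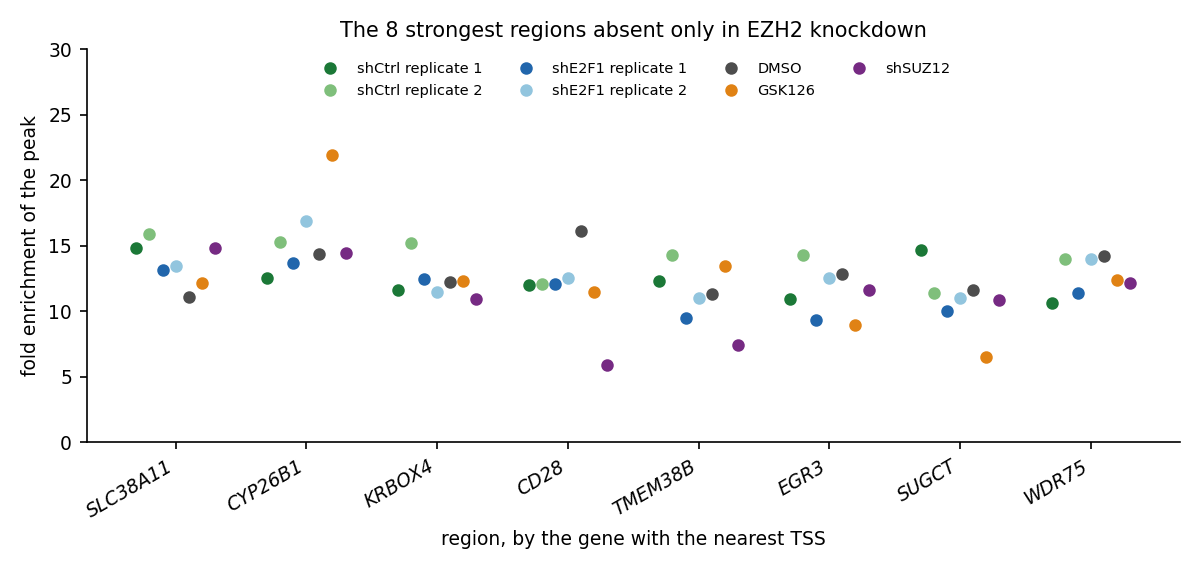
Fold enrichment (linear axis) of the peak in each of the 7 libraries that listed one, for the 8 strongest regions absent only in EZH2 knockdown, named by the gene with the nearest TSS. Points are single libraries. Values lie between 8.99 and 16.9, the exceptions being 21.9 for CYP26B1 in GSK126 and the low values of CD28 and TMEM38B in shSUZ12 and of SUGCT in GSK126.

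Such strong regions were rare among those absent only in EZH2 knockdown. The comparison regions were split by strength into 10 deciles of equal size. The weakest decile held 710 of the absent regions, 13.9% of its members, and the share fell through every decile to 2 regions or 0.039% in the strongest. The 3 weakest deciles held 71.8% of the regions, and 2185 or 93.2% lay in the 5 weakest. Because the peak lists chose the regions, this is a description. Median fold enrichment was 5.58 and 5.85 in shCtrl and 5.59 and 5.98 in shE2F1, and the median number of reads at the summit was 22, 25, 19 and 27. The lowest −log10 q over the 4 lists was at least 5 in 1862 regions (79.4%) and at least 10 in 423 (18.0%), where the lists themselves reach down to 2.00. Just inside the rule were an intron of SCHIP1 (chr3:159603804-159604654) and the promoter of TMEM100 (chr17:55722633-55723190), each with −log10 q of 2.11 in 1 shCtrl list. Just outside were an intron of DPF3 with 2.42 in the second shEZH2 list and an intron of PDE8A with 2.49 in the first.

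**Figure D2:**
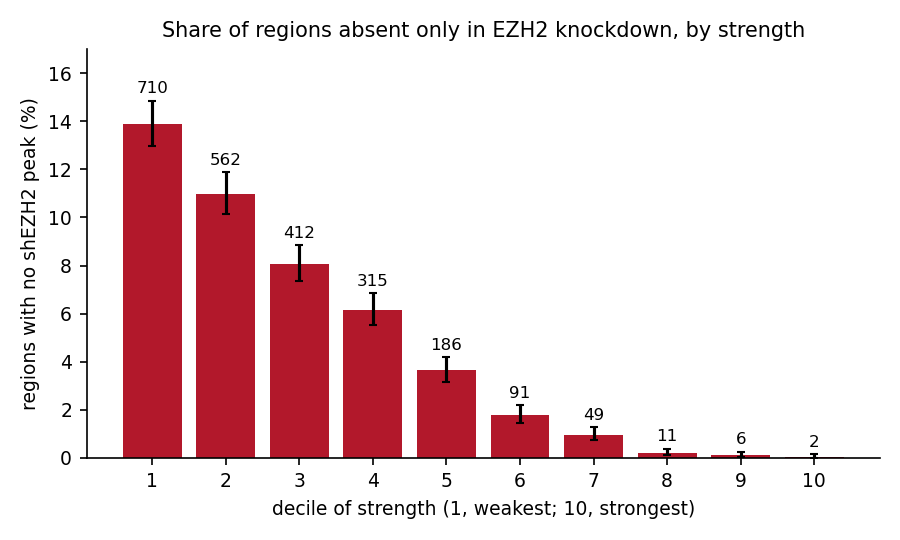
Share of comparison regions with no shEZH2 peak (%), by decile of strength, with the number of such regions above each bar and 95% Wilson intervals. The share falls from 13.9% in the weakest decile to 0.039% in the strongest.

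The libraries differed in depth and in the length of their lists. The background, which is proportional to depth, stood at 1.09 and 0.785 of the first shCtrl library in the shEZH2 libraries, 1.16 in the second shCtrl library, 0.840 and 1.22 in shE2F1, 0.998 in DMSO, 0.817 in GSK126 and 1.18 in shSUZ12. List length ranged from 58626 peaks in the second shEZH2 library and 72202 in the first to 85812 in the second shE2F1 library. The second shEZH2 list was thus the shortest and its library the shallowest of the 9. Without it the count rose to 3404, and without the first shEZH2 library to 7257.

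The number of regions depended on this. By the same rule with the groups exchanged, 616 regions had a peak in both shCtrl and both shEZH2 lists and in neither shE2F1 list, and 208 were absent only in control cells, far fewer than the 2344. When every list was limited to its 58626 strongest peaks by −log10 p, the counts were 1027 for EZH2, 902 for E2F1 and 454 for control cells. At equal length, absence in EZH2 knockdown was therefore 2.49% of 41289 comparison regions, and absence in E2F1 knockdown was nearly as frequent. Of the 2344 regions, 654 (27.9%) were still absent only in EZH2 knockdown at equal length. All 159 regions of the 5 stronger deciles were among them, compared with 254 of 501 in deciles 4 and 5 and 241 of 1684 in the 3 weakest. Shortening the lists only takes weak peaks away, so a region left the set when a shCtrl or shE2F1 peak of its own was cut. The stronger regions were thus likely to stay by how they were ranked, and their staying is no check of their absence. The 1027 also hold regions outside the 2344, which could enter when a peak of the first shEZH2 list was cut.

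Reads put the same limit in another way. DMSO, which the rule did not use, listed 1824 of the regions, with a median of 23 reads at the summit. Scaled by background to the first shEZH2 library, these came to a median of 25.1, and 79.1% of the 1824 had at least 2 times the 9 reads of the weakest peak listed there. For the second shEZH2 library the median was 18.1 and the share 59.2% against 8 reads. Scaled instead by the reads at regions shared by all 6 lists, the shares were 50.4% and 35.3%. A peak also stood close by in part of the cases. The nearest shEZH2 peak was within 500 bp of 209 regions (8.92%) and within 5 kb of 1030 (43.9%), at a median of 6.02 kb.

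The libraries outside the rule showed whether these regions had a listed peak in other samples of the same cells. DMSO-treated cells had a peak at 1824 of 2344 regions (77.8%, 95% Wilson interval 76.1–79.5), GSK126-treated cells at 1496 (63.8%, 61.9–65.7) and shSUZ12 cells at 1482 (63.2%, 61.3–65.2). Over all comparison regions, 3.35% lacked a peak in DMSO, 5.7% in GSK126 and 6.18% in shSUZ12. The absent regions therefore lacked a peak more often in each of the 3 libraries, DMSO included, by more than the counting error. Intervals here and below cover counting error only.

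The same shares were set beside regions of like strength. Regions with a peak in both shEZH2 lists, weighted to the same deciles of strength, held a peak in 96.8% of cases in DMSO, 94.9% in GSK126 and 93.9% in shSUZ12. Those with a peak in 1 shEZH2 list were in between, at 87.7%, 78.8% and 79.4%. These 2 sets were also wider, with medians of 808 and 506 bp against 442 bp. An overlap of 1 bp counted as a peak, and the weighting did not match width. Within the weakest decile, 70.8% of the absent regions had a DMSO peak, 57.6% a GSK126 peak and 57.7% a shSUZ12 peak, and within decile 5 the shares were 84.9%, 71.5% and 78.5%. The 159 regions of the 5 stronger deciles held a DMSO peak in 151 cases (94.97%, 90.4–97.4), a GSK126 peak in 143 (89.9%, 84.3–93.7) and a shSUZ12 peak in 122 (76.7%, 69.6–82.6). Regions open in both shEZH2 lists reached 99.7%, 99.3% and 98.9% at matched strength.

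**Figure D3:**
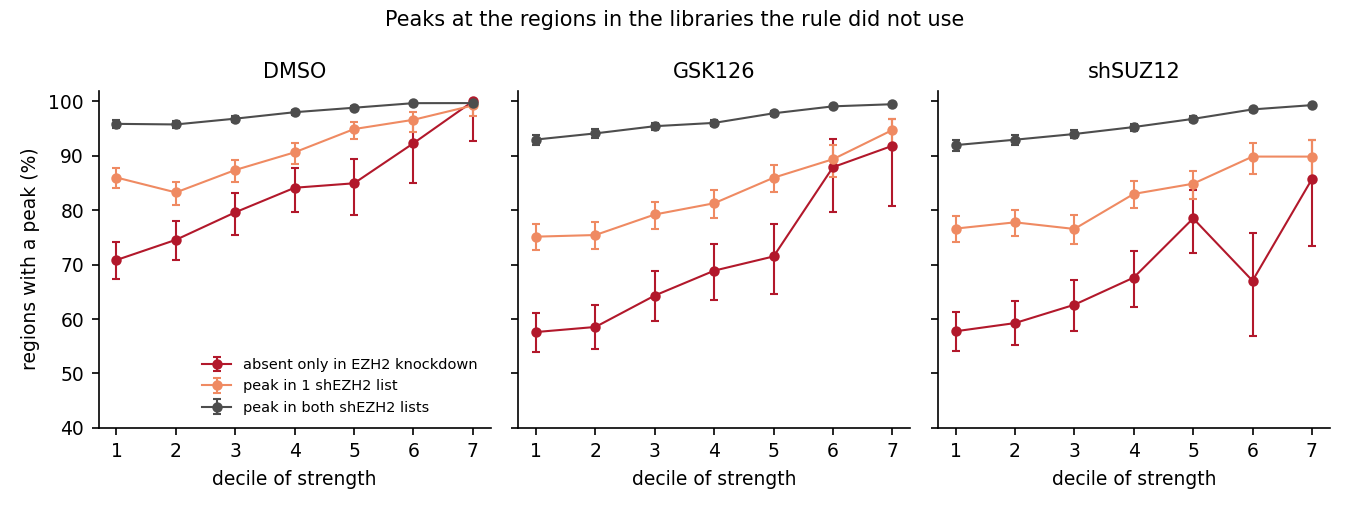
Share of regions with a peak (%) in DMSO, GSK126 and shSUZ12 by decile of strength, for deciles 1 to 7, with 95% Wilson intervals; the axis starts at 40%. Regions absent only in EZH2 knockdown (49 to 710 a decile) lie below regions with a peak in both shEZH2 lists except in decile 7 of DMSO, where all 49 had a peak.

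The libraries outside the rule were then compared region by region. All 3 had a peak at 971 regions (41.4%), and none of them at 207 (8.83%). Peaks in DMSO alone marked 238 regions (10.2%), in DMSO and GSK126 but not shSUZ12 342, and in DMSO and shSUZ12 but not GSK126 273. Between DMSO and shSUZ12, 580 regions had a peak in DMSO alone and 238 in shSUZ12 alone, so that 70.9% of the discordant regions (67.7–73.9) were on the side of DMSO, compared with 71.2% (69.4–72.9) over the other comparison regions. Between DMSO and GSK126 the numbers were 511 and 183, or 73.6% (70.2–76.8) against 69.4% (67.4–71.2). The share on the side of DMSO was thus close to that of the other comparison regions for shSUZ12 and higher by value for GSK126.

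Regions absent only in E2F1 knockdown gave a different profile. They held a peak in 70.8% of cases in DMSO (67.1–74.2), 62.3% in GSK126 (58.4–66.1) and 66.9% in shSUZ12 (63.1–70.5). DMSO exceeded shSUZ12 by 3.90 percentage points, compared with 14.6 for the regions absent only in EZH2 knockdown. Of their discordant regions, 55.8% (49.0–62.4) were on the side of DMSO against shSUZ12. The EZH2 and E2F1 regions were chosen through different lists and were not matched in strength, on which these shares depend. With lists of equal length, the EZH2 regions held a peak in 80.2% in DMSO (77.7–82.6), 75.3% in GSK126 (72.5–77.8) and 64.1% in shSUZ12 (61.1–66.9). The E2F1 regions then held 72.6%, 72.2% and 74.1%, with shSUZ12 at 71.1–76.8. DMSO thus exceeded shSUZ12 by 16.2 points in the EZH2 regions and fell short of it by 1.44 in the E2F1 regions, whereas DMSO exceeded GSK126 by 4.97 and 0.443 points. The shSUZ12 difference was thus of similar size at equal list length, and the GSK126 difference was smaller. Only 654 of the 2344 regions were among the 1027 at equal length, so these shares come from largely different sets. Each condition is 1 library, and DMSO is not the shRNA control of shSUZ12, so a difference between these libraries cannot be told apart from a difference between conditions.

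Individual regions showed each pattern. The strongest regions with a peak in DMSO and in neither GSK126 nor shSUZ12 lay in intron 8 of the zinc transporter SLC30A9 (chr4:42048410-42048818), intron 15 of the exocyst subunit EXOC1 (chr4:55893586-55894167), exon 21 of the anion exchanger SLC26A4 (chr7:107715591-107715941) and intron 5 of KAZN (chr1:15056714-15057298). In SLC30A9 the fold enrichment was 10.8 and 8.77 in shCtrl, 7.99 and 9.76 in shE2F1 and 8.25 in DMSO. In EXOC1 it was 8.24, 9.10, 8.79 and 8.77 in the same order and 4.67 in DMSO. The DMSO peak of EXOC1 was thus below all 4 libraries of the rule, which was not the case in SLC30A9.

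The strongest regions with no peak in DMSO, GSK126 or shSUZ12 were weaker. They lay in intron 2 of UBN2, part of a histone chaperone (chr7:139242797-139243322), nearest to SLC22A23 (chr6:3534580-3534954), near an unnamed protein-coding gene on chromosome 1 (chr1:89599079-89599329) and in intron 2 of the growth factor FGF2 (chr4:122889820-122890676). UBN2 had 7.53 and 7.80 in shCtrl and 9.87 and 7.40 in shE2F1. FGF2 had 6.81 and 6.82, then 7.37 and 8.33. These 4 had a listed peak in the shRNA libraries with shCtrl and shE2F1, and in none of the other 5 libraries.

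The regions absent only in EZH2 knockdown were distal. A promoter, 1 kb on either side of a protein-coding TSS, overlapped 110 of them (4.69%, 3.91–5.63), compared with 26.1% of regions with a peak in both shEZH2 lists, or 20.4% at the same strength. Introns held 42.0% against 30.3%, DNA between genes 51.5% against 41.4%, and exons 1.79% against 2.18%. The nearest TSS was at a median of 36.7 kb, compared with 21.0 kb, and 40.7% were more than 50 kb from any, against 31.9%. They were also narrower, with a median of 442 against 808 bp, and had less GC at the summit, 49.8% against 54.7%. Width spans all merged peaks, and the rule leaves shEZH2 peaks out of the absent regions. The difference in width was thus partly set by the rule, and widths were not matched in strength. The promoter share was 11.4% in the weakest decile and 3.20% in the next, where regions open in both shEZH2 lists had 23.9% and 18.9%. In the 5 stronger deciles, 2 of 159 were promoters, against 23.4% at matched strength. Regions with a peak in 1 shEZH2 list had 7.89% promoters (7.23–8.60), or 9.67% at the same strength, and a median width of 506 bp. In distance and GC they were close to the absent regions. Their nearest TSS was at a median of 34.3 kb, 40.2% were more than 50 kb from any, and GC was 50.2%. DNA between genes held 51.0% of them and introns 38.3%.

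**Figure D4:**
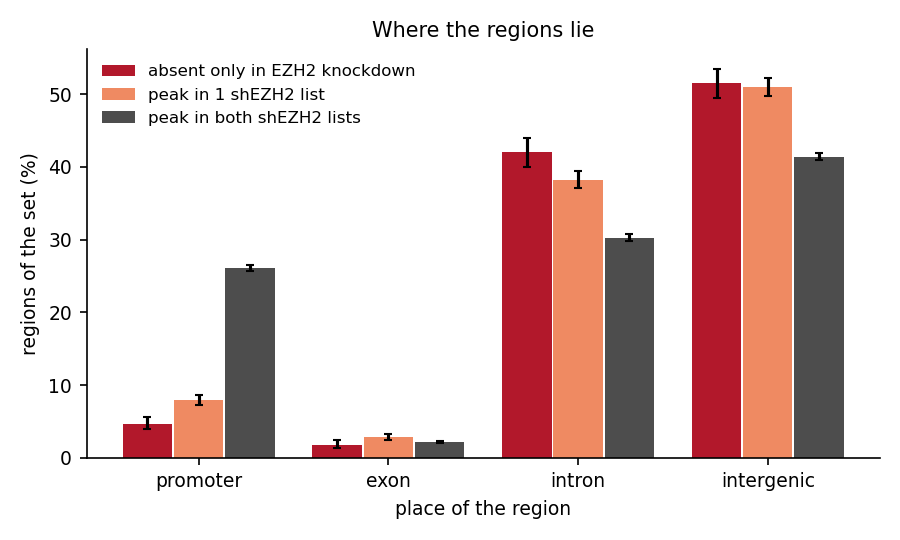
Share of each set of regions (%) in promoters, exons, introns and between genes, with 95% Wilson intervals and the axis from 0. Promoters make up 4.69% of the regions absent only in EZH2 knockdown, 7.89% of those with a peak in 1 shEZH2 list and 26.1% of those with a peak in both.

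These 110 promoter regions touched 114 genes, 0.57% of 20007. The strongest belonged to SPINK4, a secreted peptidase inhibitor, at chr9:33239927-33240427, with 7.86 and 8.45 in shCtrl, 10.0 in both shE2F1 libraries, 10.6 in DMSO, 10.4 in GSK126 and 8.33 in shSUZ12. The second was that of CNBD2, at chr20:35968913-35969263, with 10.4 and 7.47 in shCtrl, 7.19 and 8.50 in shE2F1 and 6.33 in DMSO, and no peak in GSK126 or shSUZ12. SPINK4 thus had a listed peak in all 7 libraries and CNBD2 in 5. The promoter region of TNNC2, troponin C of fast muscle, at chr20:45826445-45827162 had 6.63 to 7.79 in the libraries of the rule, 6.65 in DMSO, 6.50 in GSK126 and 3.63 in shSUZ12, its lowest value.

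The other 7 of the 10 strongest promoter regions belonged to MARCHF10, SLC45A1, SRSF12, CMKLR2, IQCF5, APOBEC3H and DRC7. They include a sugar transporter (SLC45A1), a receptor for chemerin (CMKLR2) and a cytidine deaminase that restricts retroviruses (APOBEC3H). Their fold enrichment lay between 5.35 and 7.77 in the 4 libraries of the rule. All except DRC7, which had no peak in DMSO or GSK126, were listed in DMSO, GSK126 and shSUZ12. At CMKLR2 a shEZH2 peak began or ended 22 bp away, so this promoter was not without accessible DNA in those cells.

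Lists of genes that bear on EZH2, E2F1 and TNBC were then compared with the regions. Over all protein-coding genes, 13.0% had 1 of the regions within 50 kb of the TSS. None of the 11 genes of PRC2 subunits and none of the 10 E2F and DP factors had one. Their surroundings held 43 and 50 comparison regions, of which 0 were absent only in EZH2 knockdown, which by a limit of 3 counts allows shares of up to 6.98% and 6.0%, with Wilson upper bounds of 8.20% and 7.13%. Of 26 genes of DNA replication and nucleotide synthesis, 1 had such a region (TK1), and of 24 mitosis genes 3 had (BIRC5, CDC20 and UBE2C), at 12.5% close to the share of all genes. None of these 4 was at the gene's own promoter: they lay 14.2 to 41.8 kb from the TSS, in an exon of SYNGR2 for both TK1 and BIRC5, in an exon of TIE1 for CDC20 and in the TNNC2 promoter for UBE2C.

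Counts for the other lists were small. Of 13 genes of basal-like surface receptors 4 had a region within 50 kb (AXL, CAV1, ITGA6 and ITGB4), of 15 genes of the YAP, TAZ and TEAD pathway 3 (AXL, TEAD4 and VGLL3), and of 29 developmental transcription factors 5 (GATA6, HOXA13, LHX2, PAX9 and TBX1). Read by regions, 5.75% (2.48–12.8), 4.11% (1.41–11.4) and 7.25% (3.14–15.9) of the comparison regions near these lists were absent only in EZH2 knockdown, intervals that all include 4.58%. The receptor tyrosine kinase AXL had its region in an intron 20.2 kb into the gene, weak at 3.22 and 3.04 in shCtrl and 2.67 to 3.32 in the other 5 libraries.

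The inflammatory and silenced genes gave similar shares. Of 16 cytokine and chemokine genes driven by NF-kB, 3 had a region within 50 kb (CCL20, CXCL8 and LIF), as did 3 of 16 interferon response genes (IFIT2 and IFIT3, which share 1 region, and IRF1) and 3 of 16 tumour suppressor genes reported as silenced by EZH2 (CDKN1A, PEBP1 and RASSF1). This was 18.75% of each list, against 13.0% of all protein-coding genes. Read by regions, the shares were 3.26% (1.115–9.15), 2.70% (0.744–9.33) and 5.26% (2.07–12.8), intervals that all include 4.58%. The region of CCL20, a chemokine, lay 26.1 kb downstream of the TSS with 10.0 and 9.75 in shCtrl, 6.79 and 10.4 in shE2F1, 7.90 in DMSO, 6.90 in GSK126 and 7.72 in shSUZ12. That of PEBP1, an inhibitor of RAF kinase, lay 20.2 kb upstream with 10.4 and 10.5 in shCtrl, 9.59 and 9.26 in shE2F1, 11.03 in DMSO, 9.40 in GSK126 and 4.83 in shSUZ12. Both were open in all 7 libraries, and PEBP1 was lowest in shSUZ12. The remaining lists had 1 of 9 AP-1 factors (JUNB), 1 of 16 invasion proteases and matrix genes (MMP7), 2 of 15 genes of epithelial to mesenchymal transition (SNAI1 and SNAI2) and 1 of 13 luminal genes (GATA3). By regions these were 2.22% (0.612–7.745), 1.22% (0.216–6.59), 3.28% (0.904–11.2) and 2.44% (0.432–12.6), and each interval includes 4.58%.

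SNAI2, which encodes the mesenchymal factor Slug, was the 1 listed gene with such a region at its promoter. The region, at chr8:48920163-48920781, was centred 1.15 kb into the gene and weak, at strength percentile 4.51. Its fold enrichment was 4.82 and 4.35 in shCtrl, 3.598 and 4.05 in shE2F1 and 4.31 in DMSO, and it had no peak in GSK126 or shSUZ12. A shEZH2 peak lay 452 bp away. The 8 strongest regions also included 1 on this chromosome, in intron 4 of PEBP4 at chr8:22768355-22768980, 75.1 kb upstream of the zinc finger gene EGR3, with 10.9 and 14.3 in shCtrl, 9.34 and 12.6 in shE2F1, 12.9 in DMSO, 8.99 in GSK126 and 11.6 in shSUZ12. The 7 values overlapped between the groups.

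Matches to transcription factor motifs were counted in the 100 bp to either side of each region's highest summit. AP-1 letters (TGACTCA), bound by FOS and JUN proteins, were the most frequent of those searched, in 33.2% of the regions (31.4–35.2). Regions with a peak in both shEZH2 lists had 29.4%, but 37.0% when weighted to the same GC content and 27.3% when weighted to the same strength, so the direction turned with the weighting. TEAD letters (GGAATG) were in 19.2% against 17.5%, or 21.2% and 17.3% weighted, and turned likewise. RUNX letters (TGTGGTT) were in 9.39% (8.27–10.6) against 6.66%, or 8.65% and 6.21% weighted. Forkhead letters (TGTTTAC) were in 132 regions, 5.63% (4.77–6.64), against 2.69%, or 3.43% and 2.58% weighted, and against 3.75% (3.30–4.26) with a peak in 1 shEZH2 list. Forkhead matches were thus more frequent than in the other sets by more than counting error under both weightings, whereas the RUNX difference was within it at equal GC.

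Some motifs were in few regions. The E2F letters (TTTCCCGC or TTTGGCGC) occurred in 7, 0.299% (0.145–0.615), against 0.932%, or 0.628% at equal GC and 0.638% at equal strength. The ETS letters (CCGGAAGT) also occurred in 7, against 2.20%, or 1.32% and 0.963% weighted. The CRE letters (TGACGTCA) were in 6, 0.256%, against 1.21%, or 0.767% and 0.759% weighted, and the E-box (CACGTG) in 2.69% (2.11–3.42) against 4.96%, or 3.92% and 4.50% weighted. The CTCF motif, bound by the factor that holds chromatin loops, was in 3.67% (2.98–4.51) against 3.75%, but in 6.36% (5.77–7.01) of regions with a peak in 1 shEZH2 list. None of these searches contains another's letters. Among the 159 stronger regions, AP-1 letters were in 66 (41.5%, 34.1–49.3), TEAD in 42 (26.4%), RUNX in 21 (13.2%) and forkhead in 14 (8.81%, 5.32–14.2). Regions open in both shEZH2 lists had 30.6%, 17.9%, 7.04% and 2.98% at matched strength. These sets were not matched in GC or place, since promoters made up 1.26% of the 159 and 23.4% of the regions set beside them.

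Promoters were fewer among the absent regions, so the counts were repeated for the 2234 of them outside promoters. There the E2F letters were in 0.313% (0.152–0.645) against 0.493%, or 0.411% at equal GC, a difference within counting error. ETS was in 0.269% (0.123–0.585) against 0.547%, or 0.442% and 0.495% weighted to equal GC and strength, both within the interval. CRE was in 0.134% (0.046–0.394) against 0.550%, and 0.475% and 0.486% weighted. AP-1 was in 34.4% (32.4–36.4) against 38.2%, and 40.3% at equal GC but 32.2% at equal strength. Forkhead matches stayed more frequent outside promoters, in 5.82% (4.92–6.87) against 3.20%, or 3.52% and 2.84% weighted.

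**Figure D5:**
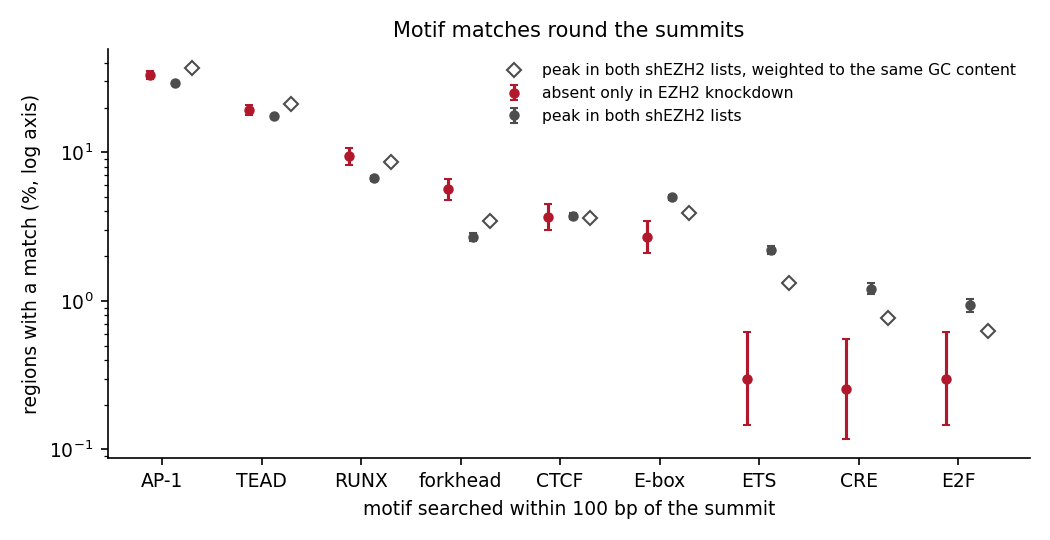
Share of regions (%, log axis) with a motif match within 100 bp of the summit, for regions absent only in EZH2 knockdown and those with a peak in both shEZH2 lists (circles with 95% Wilson intervals) and for the latter weighted to the same GC content (diamonds). Forkhead matches are higher in the absent regions, at 5.63% against 2.69%, and ETS, CRE and E2F matches lower, with promoters included in both sets.

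Between chromosomes the regions were spread broadly in proportion to the comparison regions, but within 10 kb they lay together somewhat more often. Per chromosome they made up 3.67% of these on chromosome 16 (59 of 1607) to 5.98% on chromosome 22 (60 of 1003, 4.68–7.62), leaving out the Y chromosome with 1 comparison region. Another absent region stood within 10 kb of 120 of them (5.12%, 4.30–6.09), compared with 3.43% of regions open in both shEZH2 lists (3.256–3.601), whereas within 100 kb the shares were 28.5% and 28.0%. Of 2608 genes with such a region within 50 kb, 2329 had 1, 251 had 2, 26 had 3 and 2 had 4.

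The genes with 4 were RHPN2 and SOCS6, a suppressor of cytokine signalling, out of 9 and 6 comparison regions. Around SOCS6, on chromosome 18, they lay between genes, from chr18:70243117-70243420 to chr18:70286329-70286776. The region 8.26 kb upstream of its TSS had 10.4 and 9.42 in shCtrl, 7.99 and 7.87 in shE2F1, 10.3 in DMSO, 8.45 in GSK126 and no peak in shSUZ12, and the other 3 were open in all of these. Around RHPN2, 3 lay in its introns and 1 in an intron of GPATCH1. The GPATCH1 region had 9.68 and 8.24 in shCtrl, 9.23 and 11.004 in shE2F1, 10.6 in DMSO, 8.81 in GSK126 and 7.19 in shSUZ12. None of the 3 in RHPN2 had a listed peak in all of DMSO, GSK126 and shSUZ12. BMP1, a procollagen protease, had 3 of 10, BRPF1, a scaffold of histone acetyltransferases, 3 of 8, and C17orf113 3 of 9, tied with other genes and taken in order of symbol.

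The window of 1 Mb that holds RHPN2, on chromosome 19 from 33000001, had 7 of 32 comparison regions (21.9%). It also held a region 11.3 kb downstream of the TSS of CEBPA, a factor of cell differentiation, with 6.01 and 4.92 in shCtrl and no peak in DMSO or shSUZ12. Windows on chromosome 9 from 33000001, with SPINK4, and on chromosome 20 from 49000001, with SNAI1, had 7 of 46 and 7 of 47. The window on chromosome 9 from 127000001 had 7 of 70. No window held more than 7.

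The label of the cells was checked at marker promoters. Promoters of the mesenchymal genes VIM, CD44, CAV1, AXL and EGFR had a peak in 9 of 9 lists, and that of GATA3, a luminal factor, in none. Promoters of other luminal or epithelial genes were listed too, EPCAM in 9, ESR1 in 8 and PGR and FOXA1 in 7, and a listed promoter does not show that a gene is expressed. By percentile within the lists, EPCAM stood at 61.3 to 92.2 and was the highest of these genes in every list. The mesenchymal genes stood at 0.81 to 63.6, with AXL at 0.81 and 2.56 in shEZH2, and ESR1, PGR and FOXA1 at 3.66 to 35.6. Peak strength thus did not set the mesenchymal genes apart. The promoters of EZH2, SUZ12 and E2F1 had a peak in every library, which does not check the knockdowns, since shRNAs act on RNA.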

How the data were processed

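ATAC-seq peak lists of 9 MDA-MB-231 libraries were used, grouped by their labels. The authors aligned reads with Bowtie2, allowing several alignments per read, which can place repeat reads at more than 1 site, and shifted them for the Tn5 cut before calling peaks per library. The peak caller of the ATAC-seq is not given in the sources used here, where MACS2 is named for ChIP-seq. Each deposited list holds GRCh38 positions, a score, the fold enrichment over background as a ratio, and −log10 of p and q.

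By the definitions MACS2 uses, fold enrichment and −log10 p fix the reads at a summit (1 is added to reads and background), which were recovered for 100% of peaks to within 0.00118 in −log10 p. Regions were merged at 1 bp, annotated with Ensembl canonical transcripts of GENCODE 44 (20007 protein-coding genes), and motifs searched in GRCh38. Shares have 95% Wilson intervals. No test was run, since the rule chose the regions by their values and the other conditions have 1 library each. Comparison regions were weighted to the deciles of strength or the GC steps of the absent regions.

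The regions, 14 gene lists and alternatives were chosen with earlier results of these data known. Named were the 8 strongest regions, the 10 strongest at promoters, the 4 strongest in DMSO alone, in all 3 and in none of the libraries outside the rule, the 5 genes and 3 windows with most regions (ties by symbol, and 1 more tied window added after its value was seen), and listed genes with a region at the promoter. Genes of the lists with a region within 50 kb, and the values of AXL, CCL20 and PEBP1, were named after their values were seen. Alternatives changed the peak threshold, list length, peak width, distance, promoter definition, scaling and libraries. The merging and read recovery were tested on simulated lists. Python 3.11.15, pandas 2.3.3, numpy 2.4.6, SciPy 1.17.1 and pysam 0.24.0 were used.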

Additional observations from a re-analysis of the deposited data

How the results depend on the processing

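The number of regions, 2344, was 2196 with a −log10 q of at least 5 in every list, 1862 with this threshold for presence alone, 2359 with 250 bp to either side of summits in place of peaks and 2135 with no shEZH2 peak within 500 bp, but 1027 with lists of equal length. At equal length the regions absent only in E2F1 knockdown rose from 616 to 902 and those absent only in control cells from 208 to 454, a comparison chosen after seeing the data. Leaving out 1 library gave 2802 to 7257 regions, the highest without the first shEZH2 library and 4502 without the first shE2F1 library, which follows from fewer lists entering the rule.

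The share with a DMSO peak, 77.8%, was 79.6% with −log10 q of at least 5 in every list, 81.4% with it for presence alone and 80.2% at equal list length. For GSK126, 63.8%, the same settings gave 66.9%, 67.5% and 75.3%, and for shSUZ12 all 3 stayed within the interval of 63.2%. Leaving out 1 library gave 70.1 to 85.6% for DMSO, 56.3 to 75.5% for GSK126 and 55.8 to 75.4% for shSUZ12, highest without the first shEZH2 library. DMSO stayed above GSK126 and shSUZ12 in each of these settings.

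The promoter share, 4.69%, was 3.38% with −log10 q of at least 5 for presence alone, 3.70% at equal list length and also with no shEZH2 peak within 500 bp, 5.64% with summit windows, 7.51% with promoters of 2.5 kb and 9.43% with promoters of all gene types. Leaving out 1 library gave 4.33 to 7.23%. Scaled by shared regions instead of background, the share of DMSO peaks with at least 2 times the reads of the weakest shEZH2 peak was 50.4% in place of 79.1% and 35.3% in place of 59.2%. No paired analysis was possible because the results are counts and shares that come from no test. The second shEZH2 library was the shallowest, so absence from its list shows less for the weaker regions. The first shEZH2 library, which the rule also used, stood at 1.09 of the depth of the first shCtrl library. At regions shared by all 6 lists, its reads were a median of 0.86 of the first shCtrl library and 0.719 of the second. The background ratios to these were 1.09 and 0.937. For the second shEZH2 library the reads stood at 0.625 and 0.521, against 0.785 and 0.677 by background. Set beside the shE2F1 libraries, reads of the first shEZH2 library stood at 1.4 and 0.864, against 1.295 and 0.894 by background. Depth as a reason for absence was not tested.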
